A study of Mus musculus with 24 samples.

Results

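The genes of cholesterol synthesis and its control by SREBP2 were described across 24 mouse liver arrays. The set held 28 genes, drawn up from the pathway, and a gene was represented by the probe of its name with the highest mean signal over the 24 arrays. A probe was found for 27 of the 28, out of 37074 gene names on the array and 21276 with a tested probe; Acat2 had no probe of that name in the files used here. All 27 were well above background, by the scanner's own mark, on 24 of 24 arrays. Livers came from C57BL/6J mice, aged 68 weeks by label, in 4 groups of 6, control and pesticide for each labelled sex. Pesticide groups had received a diet enriched with pesticides for 52 weeks and control groups the plain diet, and the labels used here do not list the pesticides. Each of 3 slides carried 8 arrays, 2 of each group.

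Liver cells build cholesterol from acetyl-CoA in a long chain of enzymes, first to isoprenoid units, then to squalene, and then through a series of sterols. The transcription factor SREBP2, product of Srebf2, turns these enzymes on together: when sterol is low, Scap carries it from the endoplasmic reticulum to the Golgi, where it is cut free, and when sterol is high, Insig1 and Insig2 hold Scap back. The liver makes much of the cholesterol of the body, and this set of transcripts is known to respond to feeding and to the sterol content of the diet. Further members handle finished sterol: Soat2 esterifies it, Npc1 moves it out of lysosomes, Stard4 carries it through the cytosol, and Mylip tags lipoprotein receptors for degradation.

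Sex-linked transcripts did not follow the sex labels, which bears on every contrast below. Xist, the X-inactivation RNA of female cells, was well above background on 6 of 6 arrays in both labelled pesticide groups and on 0 in both labelled control groups, while 4 Y-linked genes (Eif2s3y, Ddx3y, Kdm5d and Uty) had the reverse pattern. Labelled diet and sex-chromosome transcripts coincided on every array and cannot be told apart, so groups are called by their labels. The number of probes well above background ran from 29935 to 39032 over arrays, and neither it (r = -0.18) nor the log2 median spot signal (r = 0.08) tracked the mean of the members over 24 arrays after group means were removed. Of 8 hepatocyte markers, 0 passed in either pesticide contrast and 1, Hpx, in the mean of both (0.22 ± 0.08, limma adjusted p = 0.0377). Alb and Serpina1a lay at the top of the normalized scale, where the rank sets the value. Values below are log2 intensities after quantile normalization, and one probe's level is not compared with another's.

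These genes moved together from array to array within every group. After removal of the 4 group means, the 351 pairs of members had a median Pearson r of 0.59 over 24 arrays, beside a median of 0.00 over all pairs of 21263 tested genes (5th to 95th percentile -0.44 to 0.46). Of the member pairs, 56.4% had r of 0.5 or more, beside 3.61% of all pairs. The median pair r was 0.72, 0.68, 0.63 and 0.55 within the control and pesticide arrays of labelled males and then of labelled females. Within slides 1, 2 and 3 it was 0.69, 0.89 and 0.69, after removal of the mean of each group on that slide. A slide holds 2 arrays of each group, whose deviations mirror each other. The slide values thus rest on few free differences and are not set against the 0.59. These correlations describe the 24 arrays, which share a normalization, and carry no p. The first principal component of the scaled deviations held 60.3% of their variance and the second 10.7%.

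**Figure D1:**
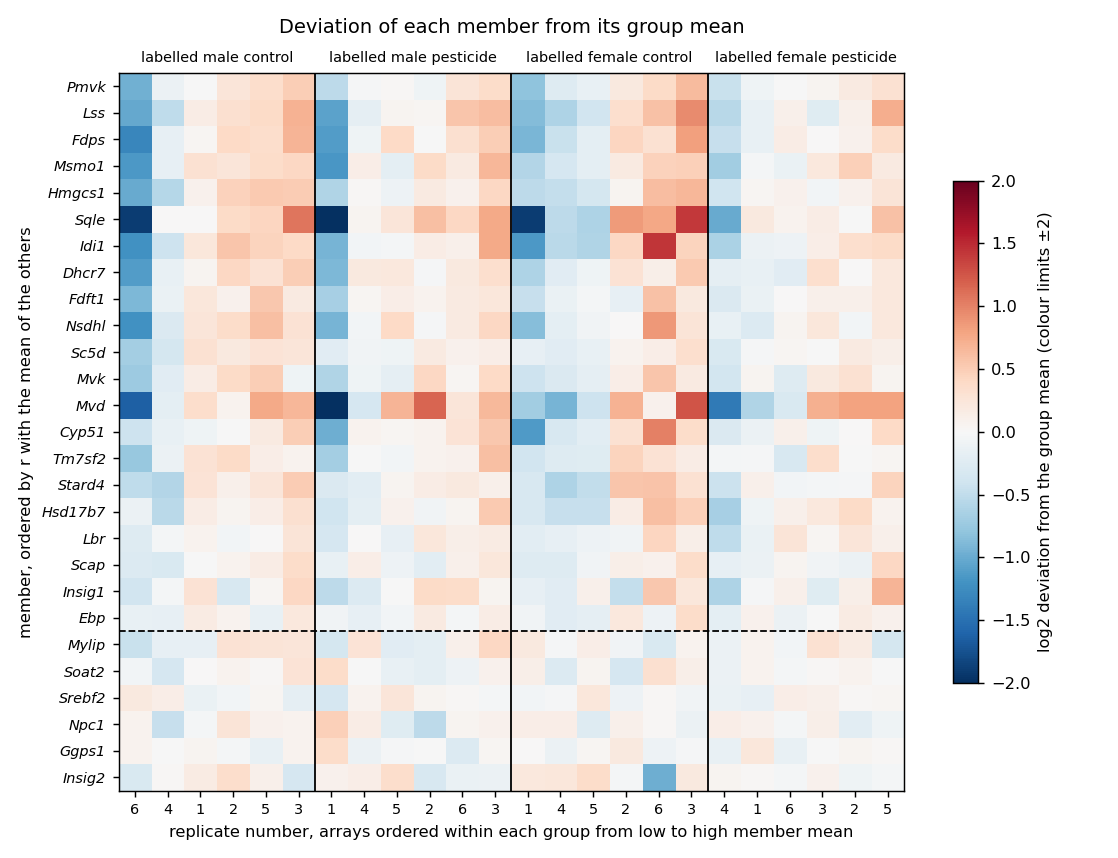
Heat map of the log2 deviation of each of the 27 members (vertical) from its group mean on each of the 24 arrays (horizontal), with arrays ordered within a group by the member mean and members by their r with the mean of the others. Above the dashed line are the 21 members with r of 0.5 or more over 24 arrays, most of which turn from blue to red in each group. The 6 below it had a lower r. Inside single groups, r was as low as 0.235 above the line (Tm7sf2, labelled female pesticide). Below it, r was as high as 0.895 (Mylip, labelled male control). The order of arrays and members comes from these same values.

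The 21 members with r of 0.5 or more with the mean of the others spanned the whole pathway. Pmvk, which adds the second phosphate to mevalonate, had the highest r (0.955). Lss, which folds squalene epoxide into lanosterol (0.953), Fdps, which makes farnesyl diphosphate (0.952), Msmo1, a sterol demethylase (0.948), and Hmgcs1, which makes HMG-CoA (0.946), followed. Each of these 5 had an r between 0.782 and 0.998 inside every one of the 4 groups. The closest pair was Fdps and Pmvk (r = 0.96), both of the isoprenoid branch. At the other end of the 21 stood Insig1 (0.607) and Ebp, a sterol isomerase (0.601); without the 2 arrays farthest from the median of the mean, Insig1 had 0.497. The 6 members below 0.5 were Mylip (0.368), Soat2 (0.104), Srebf2 (-0.011), Npc1 (-0.246), Ggps1 (-0.261) and Insig2 (-0.261). Ggps1 makes geranylgeranyl diphosphate for protein prenylation, a side branch off the road to sterol. The Srebf2 probe used thus did not track the other members, although the second probe of Srebf2 had r = 0.73 with them. Of the 4 sterol handling genes, Stard4 alone was above 0.5 (0.808). In single groups Srebf2 ranged from -0.825 in labelled male control to 0.675 in labelled male pesticide arrays, with 6 arrays each.

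**Figure D2:**
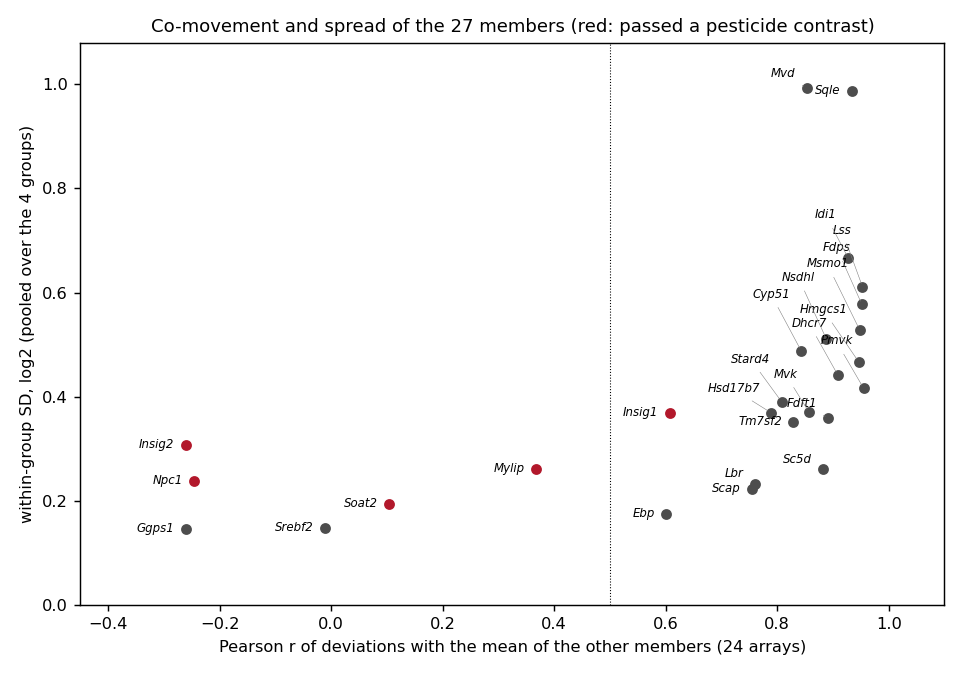
Each point is 1 of the 27 members, placed by its Pearson r with the mean of the other members (horizontal, 24 arrays) and its within-group SD (vertical, log2). Mvd and Sqle stand at the top with SDs near 0.99. Red marks members that passed a pesticide contrast, among them 4 of the 6 left of the dotted line at 0.5. In the mean of both contrasts these 4 passed, beside 36.1% of all tested probes. The 6 had a median SE of 0.085 there, against 0.158 for the other 21, so the counts are not compared.

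Most of the enzymes also varied more between livers of one group than the median probe. The within-group SD of 17 of the 19 enzymes lay above the median over all tested probes, 0.18, and that of Ebp and Ggps1 below it. The median over the members was 0.37. The 5 widest were Mvd (0.99), which makes isopentenyl diphosphate, Sqle (0.99), the squalene epoxidase, Idi1 (0.67), which isomerises isopentenyl diphosphate, Lss (0.61) and Fdps (0.58). In labelled male pesticide livers Mvd ran from 8.93 to 12.49, a range of 3.56 or 11.8-fold within a single group. Sqle ran from 11.25 to 14.56 in labelled female controls, a 9.94-fold range. For every member the largest of the differences between group means was smaller than its widest range inside a group, so this does not set the 5 apart. Their largest differences were 0.86 for Mvd, 0.75 for Sqle, 0.40 for Idi1, 0.57 for Lss and 0.31 for Fdps.

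A single array held most of the lowest values in each group. Labelled male control 6 was the lowest array of its group for 17 of the 21 co-moving members, labelled male pesticide 1 for 19, labelled female control 1 for 14 and labelled female pesticide 4 for 18. The highest values were less concentrated: labelled male pesticide 3 was highest for 14, labelled male control 3 for 13, labelled female pesticide 5 for 12 and labelled female control 3 for 11. On the 4 low arrays all 21 co-moving members lay below their group mean, as they also did on labelled female control 4. On labelled male control 4 and labelled female control 5, 20 of 21 did. The 21 were picked by their co-movement over these same arrays, so being low together is partly set by that choice. Without both labelled male control 6 and labelled male pesticide 1, a choice made after the data were seen, the median pair r was 0.54.

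Promoter sequence shows what the co-moving genes and the others have in front of them. RefSeq promoter entries (GRCm38.p6) were found for 22 of the 28 listed genes, in 28 windows, since a gene can have several starts. The 250 bases upstream of each start were searched on both strands for the sterol regulatory element TCACNCCAC, the NF-Y site CCAAT and the GC box GGGCGG bound by Sp1. SREBP2 is known to act with NF-Y and Sp1 on such promoters. None of the 3 motifs contains another, and a window counted once however many matches it held. TCACNCCAC was in 1 of the 28 windows (3.57%), that of Hmgcs1, and in 1.05% of all 32851 windows of the table. CCAAT was in 20 of the 28 windows (71.4%), beside 33.8% of all windows and 35.4% of those of protein-coding genes. GGGCGG was in 22 (78.6%), beside 32.7% and 42.6%. The 150 bases before the start are printed for 5 co-moving genes and for 3 whose probe used had r below 0.5. They read 5′ to 3′ along the gene, with matches to any of the 3 motifs, on either strand, in capitals.
Hmgcs1 (chr13:119690201-119690350, plus strand): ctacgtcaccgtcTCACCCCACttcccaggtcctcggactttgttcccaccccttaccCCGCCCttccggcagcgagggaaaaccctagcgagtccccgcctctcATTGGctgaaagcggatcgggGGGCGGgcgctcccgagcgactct
Idi1 (chr13:8885456-8885605, plus strand): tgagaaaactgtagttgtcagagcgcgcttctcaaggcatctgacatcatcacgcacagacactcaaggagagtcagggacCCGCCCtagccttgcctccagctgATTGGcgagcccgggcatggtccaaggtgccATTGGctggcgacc
Lss (chr10:76531455-76531604, plus strand): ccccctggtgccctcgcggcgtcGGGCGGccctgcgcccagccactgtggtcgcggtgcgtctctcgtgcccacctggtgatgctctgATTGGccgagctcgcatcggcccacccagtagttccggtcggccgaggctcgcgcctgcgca
Mvk (chr5:114444119-114444268, plus strand): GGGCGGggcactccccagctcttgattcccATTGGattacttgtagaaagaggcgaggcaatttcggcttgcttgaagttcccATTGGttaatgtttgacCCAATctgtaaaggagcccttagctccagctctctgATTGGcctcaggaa
Insig1 (chr5:28071262-28071411, plus strand): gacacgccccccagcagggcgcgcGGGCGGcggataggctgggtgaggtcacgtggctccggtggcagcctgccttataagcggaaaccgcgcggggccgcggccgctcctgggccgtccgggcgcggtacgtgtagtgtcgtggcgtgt
Srebf2 (chr15:82147119-82147268, plus strand): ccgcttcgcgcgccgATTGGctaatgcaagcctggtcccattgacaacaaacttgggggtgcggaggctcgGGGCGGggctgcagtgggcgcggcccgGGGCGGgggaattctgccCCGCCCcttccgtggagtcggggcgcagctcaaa
Ggps1 (chr13:14063489-14063638, minus strand): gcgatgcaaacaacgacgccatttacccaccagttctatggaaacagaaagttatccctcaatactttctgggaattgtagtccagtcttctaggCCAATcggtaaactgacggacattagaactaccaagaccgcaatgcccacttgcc
Mylip (chr13:45389592-45389741, plus strand): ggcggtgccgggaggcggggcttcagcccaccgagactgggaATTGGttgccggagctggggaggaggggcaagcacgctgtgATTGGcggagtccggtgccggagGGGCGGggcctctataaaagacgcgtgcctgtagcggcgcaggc
Both kinds of gene carry these letters: the Mvk stretch holds 4 CCAAT matches and those of Idi1 and Mylip 2 each, that of Srebf2 holds 1 CCAAT and 3 GC box matches, and that of Ggps1 1 CCAAT and 0 GC boxes. A match is a run of letters and not a measured binding site, and longer or degenerate forms of the sterol element were not searched.

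The mean of the 27 members gives the level of the whole set on an array. It was 12.64 ± 0.38 in labelled male control (11.96 to 12.96), 12.92 ± 0.31 in labelled male pesticide (12.33 to 13.25), 12.83 ± 0.35 in labelled female control (12.38 to 13.23) and 12.81 ± 0.21 in labelled female pesticide livers (12.44 to 13.04; SD, n = 6 each). All 4 ranges overlapped, and the lowest and highest arrays of every group came as above. The difference of labelled pesticide minus control was 0.29 in labelled males and -0.02 in labelled females, both under the pooled SD of 0.32. In labelled males it was 0.15 without labelled male control 6 and 0.40 without labelled male pesticide 1. By slide it was -0.12, 0.39 and 0.59 in labelled males and 0.16, -0.21 and 0.00 in labelled females, so its direction was not the same on the 3 slides. The labelled male minus female difference was -0.19 in controls and 0.11 in pesticide livers, and by slide ran from -0.49 to 0.11 and from -0.18 to 0.40. Slide means were 12.75, 12.83 and 12.82. A score over chosen members carries no p.

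**Figure D3:**
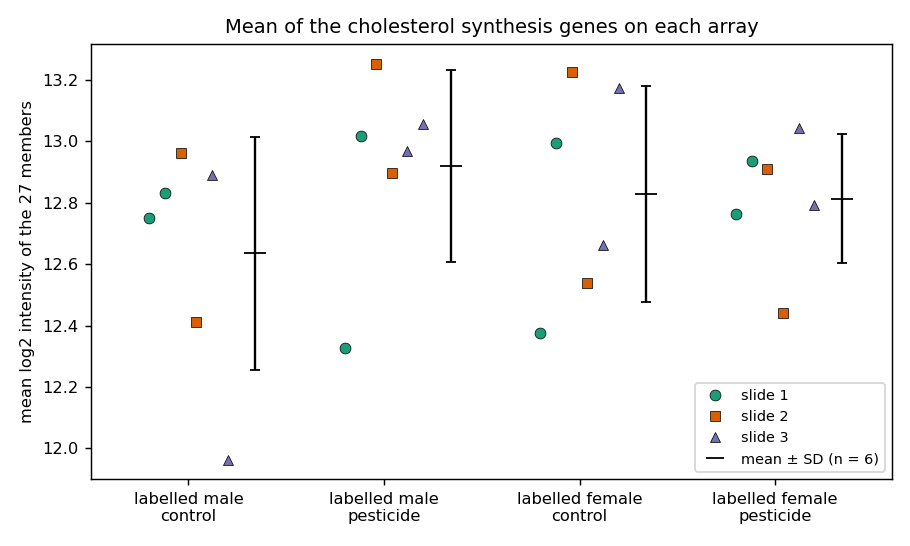
Mean log2 intensity of the 27 members on each array (vertical) by labelled group (horizontal), with slides as colours and shapes and the mean ± SD (n = 6) beside each group. The 4 groups overlap, and labelled male control 6 is the lowest of all at 11.96.

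The main comparison asked whether the transcripts differed between labelled pesticide and control livers. In labelled males 3 of 27 members passed limma's test at a Benjamini-Hochberg adjusted p under 0.05 (11.1%), with Insig1 and Mylip higher and Insig2 lower, beside 22.2% of all 32078 tested probes. In labelled females 3 of 27 passed (11.1%), Mylip, Npc1 and Soat2, all higher, beside 18.3% of all probes in either direction and 8.88% higher. For the mean of both contrasts 4 passed (14.8%), Mylip, Npc1 and Soat2 higher and Insig2 lower, beside 36.1%. The members had a median SE of 0.199 in either labelled sex, beside 0.105 over all probes. Their median absolute difference was 0.297 in labelled males and 0.136 in labelled females, beside 0.151 and 0.147 over all probes. Of the 19 enzymes, 7 of the isoprenoid and 12 of the sterol branch, 0 passed in any of the 3 contrasts. Of all 27 members, 9, 4 and 7 had an unadjusted limma p under 0.05, beside 11051, 10160 and 14428 of the 32078 probes. The median member difference was 0.30 in labelled males, with 24 of 27 above 0, and -0.03 in labelled females, with 12 of 27 above 0, beside -0.03 and -0.02 over all probes. Since 21 of the 27 members moved together over arrays, their signs are not separate counts. P-values here measure the spread between liver samples, which the labels do not tie to mouse numbers, and bulk RNA cannot tell fewer cells of a type from less RNA per cell.

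**Figure D4:**
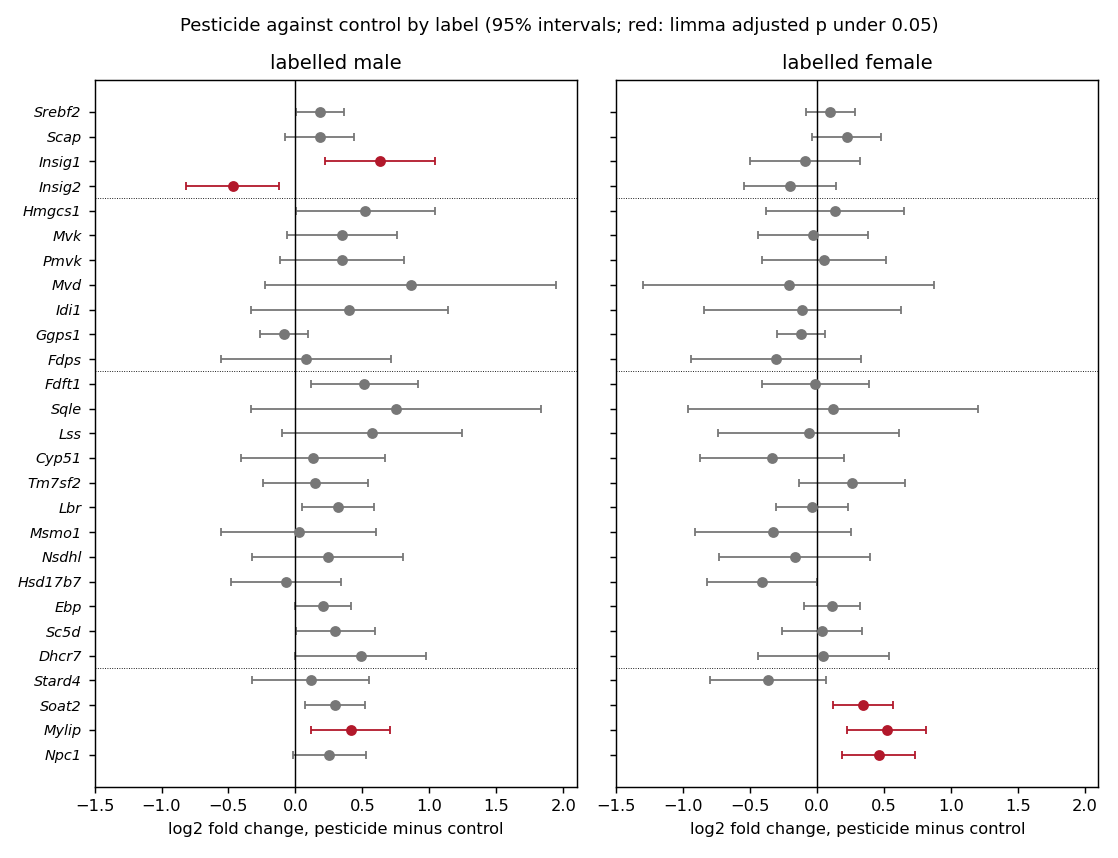
Log2 fold change of each member, labelled pesticide minus control (horizontal, 95% intervals), in labelled males (left) and females (right), with members in the order regulators, isoprenoid enzymes, sterol enzymes and sterol handling. In labelled males 24 of 27 points lie right of 0 and in labelled females 12; those past the threshold are red.

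The count in labelled males depended on single arrays. It was 0 without labelled male pesticide 6, 1 without any one of labelled male control 1, 2, 4 or 6 or labelled male pesticide 3 or 4, and 5 without labelled female control 6, which acts through the shared spread. Without labelled male pesticide 1, the low array named above, 7 passed, all higher: Srebf2, Mvd, Fdft1, Lbr, Dhcr7, Insig1 and Mylip. Without both that array and labelled male control 6, 4 passed: Srebf2, Fdft1, Insig1 and Insig2. The shares of all probes in these runs are not given here, so the counts show only how the calls depend on single arrays. Of the enzymes, Fdft1, the squalene synthase, was nearest the threshold with all arrays (0.52 ± 0.19, limma adjusted p = 0.0587), and Lbr, which doubles as a sterol reductase of the nuclear membrane, came next (0.32 ± 0.13, adjusted p = 0.0815). The fold changes of the widest enzymes had wide intervals: Mvd in labelled males was 0.86 with a 95% interval of -0.23 to 1.95, and Sqle 0.75 with -0.33 to 1.83. In labelled females they were -0.21 (-1.30 to 0.87) and 0.12 (-0.97 to 1.20).

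Beyond these, the isoprenoid enzymes had differences of -0.09 (Ggps1) to 0.86 (Mvd) in labelled males and -0.31 (Fdps) to 0.14 (Hmgcs1) in labelled females, with medians of 0.35 and -0.11. Mvk, the mevalonate kinase, had 0.35 and -0.03, and Pmvk 0.35 and 0.05. The sterol enzymes ran from -0.07 (Hsd17b7, a ketosteroid reductase) to 0.75 (Sqle) in labelled males and from -0.41 (Hsd17b7) to 0.26 (Tm7sf2, a sterol reductase) in labelled females, with medians of 0.27 and -0.03. Cyp51, the lanosterol demethylase, had 0.13 and -0.34, and Dhcr7, which makes the final reduction to cholesterol, 0.49 and 0.05. Nsdhl, a sterol dehydrogenase, and Ebp are the X-linked members, and at 0.24 and 0.21 in labelled males and -0.17 and 0.11 in labelled females neither passed.

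Among the 4 regulators, Insig1 was higher and Insig2 lower in labelled pesticide males. Insig1, itself a known SREBP2 target (probe A_51_P290207, mm9, chromosome 5, 28404246 to 28404305), stood at 10.711, 10.097, 10.838, 10.383, 10.450 and 10.034 in labelled male control 1 to 6. In labelled male pesticide livers it was 10.521, 11.431, 11.105, 10.775, 11.038 and 11.421. Of the pesticide values, 4 of 6 lay above the control range and the others inside it. The log2 fold change was 0.63 ± 0.20 (SE; 1.55-fold; limma adjusted p = 0.025). It was 0.57, 0.33 and 0.99 on slides 1, 2 and 3, and the call was lost without labelled male control 2 or 6 or labelled male pesticide 2 or 6 (adjusted p = 0.0566 to 0.0646 by limma). In labelled females Insig1 had medians of 10.69 in control and 10.67 in pesticide livers (10.25 to 11.26 and 10.02 to 11.31) and a difference of -0.09 ± 0.20. The labelled male minus female effect was 0.72 ± 0.28, with a limma adjusted p of 1.

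Insig2, the related protein that also retains Scap (A_51_P439452, chromosome 1, 123201085 to 123201144), had a median of 15.11 in labelled male control (14.71 to 15.40) and 14.56 in labelled male pesticide livers (14.26 to 14.93). The groups overlapped in part. The log2 fold change was -0.47 ± 0.17 (limma adjusted p = 0.0455). It was -0.84, -0.31 and -0.26 on slides 1, 2 and 3. The call was lost without any one of 15 arrays, labelled male control 1, 2, 4 or 5, labelled male pesticide 1, 2, 3, 4 or 6, labelled female control 2, and labelled female pesticide 1, 2, 4, 5 or 6 (limma adjusted p = 0.0507 to 0.104). In labelled females the medians were 15.27 in control (14.10 to 15.44) and 14.86 in pesticide livers (14.78 to 14.95), with a difference of -0.20 ± 0.17 that did not pass. Labelled female control 6, at 14.10, lay 0.93 below the next array of its group, and without it the difference was -0.40 and passed (limma adjusted p = 0.0246). The mean of both contrasts was -0.34 ± 0.12 (limma adjusted p = 0.0286), lost without labelled male control 2, labelled male pesticide 2 or labelled female control 5 (0.0509 to 0.0532). Both other probes of Insig2 had differences of the same sign, -0.41 and -0.44 in labelled males, and neither passed (limma adjusted p = 0.0822 and 0.0711).

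Srebf2 had medians of 10.72, 10.94, 10.79 and 10.96 in the control and pesticide livers of labelled males and then of labelled females, with a narrow SD of 0.12 to 0.19. Its differences of 0.18 ± 0.09 and 0.10 ± 0.09 did not pass, and the mean of both, 0.14 ± 0.06, had a limma adjusted p of 0.0772. That mean passed with a slide block (0.0362 by limma), a replicate block (0.0314) or the mean over probes (0.0221), and not under the other processing choices. The second Srebf2 probe had 0.19 for the mean of both and passed (limma adjusted p = 0.0304). Scap had medians of 14.10, 14.25, 14.01 and 14.12 in the same order and differences of 0.18 ± 0.12 and 0.22 ± 0.12. Unlike the Srebf2 probe used, Scap tracked the other members (r = 0.755 over 24 arrays).

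Of the 4 sterol handling genes, Mylip was higher in both labelled pesticide groups and Npc1 and Soat2 in labelled females. Mylip (A_51_P324303, chromosome 13, 45506979 to 45507038) was 9.06, 9.50, 9.45, 9.05, 9.48 and 8.76 in labelled male control 1 to 6 and 9.28, 9.43, 10.04, 9.90, 9.41 and 9.73 in labelled male pesticide 1 to 6. In labelled female control it was 9.31, 9.04, 9.18, 9.09, 9.23 and 8.80, and in labelled female pesticide livers 9.70, 9.79, 9.93, 9.51, 9.27 and 9.57. One female pesticide value lay inside the control range, and 3 of 6 male pesticide values did. The log2 fold change was 0.41 ± 0.14 in labelled males (limma adjusted p = 0.0396) and 0.52 ± 0.14 in labelled females (0.0128), and 0.47 ± 0.10 for the mean (0.000861). By slide it was 0.08, 0.72 and 0.45 in labelled males and 0.57, 0.59 and 0.41 in labelled females. The male call was lost without labelled male control 1, 4 or 6 or labelled male pesticide 3, 4 or 6 (limma adjusted p = 0.0759 to 0.109). The female call and that of the mean passed without any single array, at limma adjusted p of up to 0.0372 and 0.00199.

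Npc1 (A_55_P2896687, chromosome 18, 12348554 to 12348610) was the member whose labelled female groups did not overlap, as for 7.83% of all tested probes in either direction and 3.64% higher. Its median was 12.99 in labelled female control (12.66 to 13.06) and 13.41 in labelled female pesticide livers (13.17 to 13.52). The log2 fold change was 0.46 ± 0.13 (limma adjusted p = 0.0164), and 0.28, 0.58 and 0.52 on slides 1, 2 and 3; leaving out any array gave an adjusted p of at most 0.0423. In labelled males the medians were 13.16 (12.63 to 13.35) and 13.41 (12.81 to 13.82), with a difference of 0.25 ± 0.13 that did not pass. In that contrast 0 members had groups without overlap, beside 10.2% of all probes. The mean of both contrasts was 0.36 ± 0.09 (limma adjusted p = 0.00421).

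Soat2, the acyltransferase of hepatocytes (A_66_P116372, chromosome 15, 101993657 to 101993716), had a median of 12.41 in labelled female control (11.99 to 12.65) and 12.68 in labelled female pesticide livers (12.55 to 12.74). The pesticide arrays lay close together, with an SD of 0.07 against 0.25. The log2 fold change was 0.34 ± 0.11 (limma adjusted p = 0.0307), and 0.52, 0.37 and 0.14 on slides 1, 2 and 3. The call was lost without labelled female control 2 or 4 or labelled female pesticide 1, 2 or 3 (limma adjusted p = 0.0516 to 0.0824). In labelled males the medians were 12.32 (11.97 to 12.57) and 12.54 (12.39 to 12.96), with a difference of 0.30 ± 0.11 and a limma adjusted p of 0.0556. The mean of both was 0.32 ± 0.08 (0.00236). Stard4, which tracked the enzymes, had differences of 0.11 ± 0.21 and -0.37 ± 0.21.

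**Figure D5:**
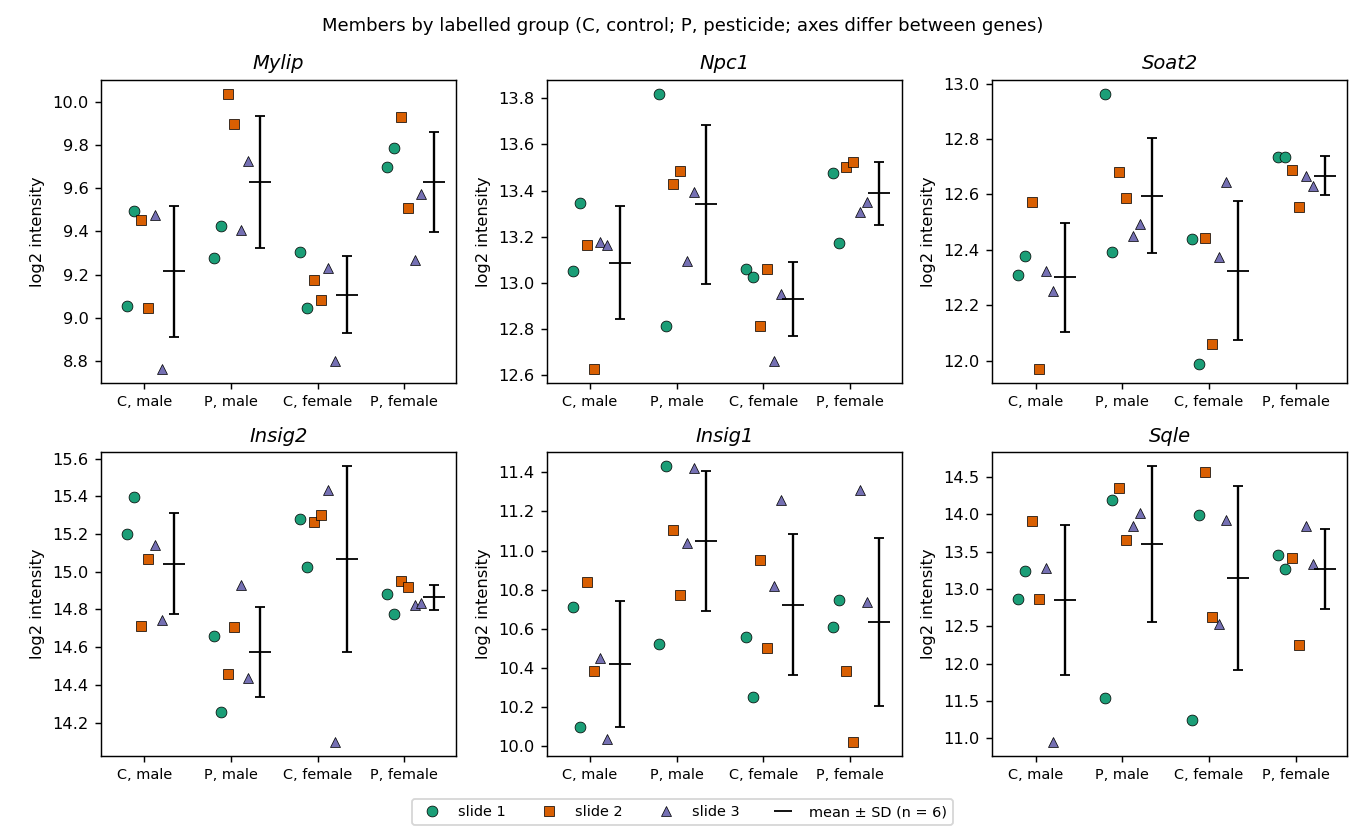
Log2 intensity (vertical) of 6 members on each array by labelled group (horizontal), with slides as colours and shapes and the mean ± SD (n = 6); axes differ between genes. Mylip is higher and Insig2 lower on average in both labelled pesticide groups, Npc1 does not overlap between the labelled female groups, and Sqle spans over 1.5 log2 units in every group.

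Markers of some other liver cells moved with the same labels, where 22.2% of all probes passed in labelled males and 18.3% in labelled females. Higher in the pesticide livers of each labelled sex were 9 of 10 markers of Kupffer cells and macrophages and 5 of 6 endothelial markers. Stellate cell markers were higher for 5 of 6 in labelled males and 2 of 6 in labelled females, and those of B and plasma cells for 3 of 5 and 0 of 5. Tested T and NK cell markers were higher for 1 of 4 and 0 of 4, and 0 of 4 bile duct markers passed in either. The summed level of the macrophage markers ran from 14.27 to 16.16 (log2) in labelled male control, 15.59 to 16.43 in labelled male pesticide, 13.94 to 16.35 in labelled female control and 15.12 to 16.81 in labelled female pesticide livers, and that of the endothelial markers from 13.92 to 14.42, 14.40 to 15.00, 13.80 to 14.30 and 14.50 to 14.96. No macrophage or endothelial marker was below background on all arrays of a group. Once group means were removed, Mylip followed the endothelial marker mean with r = 0.82 (rho = 0.82, 24 arrays) and the macrophage mean with r = 0.25. Npc1 had 0.26 and 0.05, Soat2 0.19 and -0.07, Insig1 -0.02 and -0.17, and Insig2 0.30 and 0.13. Mylip also had r = 0.574 with the bile duct and 0.465 with the stellate markers. The mean of all members had r = 0.53 with the endothelial, 0.59 with the bile duct, 0.27 with the stellate and -0.10 with the macrophage markers. With B and plasma cell markers it had -0.49, with T and NK cell markers -0.38 and with hepatocyte markers -0.07. Of 4 adipocyte markers 2 were tested. Cfd, an adipocyte-secreted protease, was lower in the pesticide livers of both labelled sexes (limma adjusted p = 0.00326 in males and 0.000119 in females). It was well above background on 6 of 6 control and 1 of 6 pesticide arrays in labelled males, and on 5 and 2 of 6 in labelled females. Lep, which encodes leptin, did not pass in either. Their summed level ran from 8.05 to 9.78 (log2) in labelled male control, 7.52 to 7.67 in labelled male pesticide, 7.70 to 11.54 in labelled female control and 7.55 to 7.76 in labelled female pesticide livers. Insig2, the member lower in pesticide livers, followed the mean of both with r = 0.79 (rho = 0.60), and with r = 0.45 (rho = 0.34) without labelled female control 6. The part of these cells in the results was not tested.

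A second probe gave another answer for some members. The 18 members with other tested probes had 27 of them, and 21 of these had r of 0.5 or more with the probe used. The second Ebp probe was higher in both labelled pesticide groups (0.31 and 0.40, limma adjusted p = 0.0202 and 0.00425), where the probe used was not. Second probes of Sc5d, a sterol desaturase (0.79, adjusted p = 0.00135), and Hmgcs1 (0.71, 0.0367) were higher in labelled males by the same limma test. One of 5 other Ggps1 probes was lower in both (-0.26 and -0.23, limma adjusted p = 0.00371 and 0.0118). The second Soat2 probe was higher in labelled females (0.45, limma adjusted p = 0.033), and both other Npc1 probes had positive differences there (0.36 and 0.30) that did not pass. The second Srebf2 probe had r = 0.73 with the members, against -0.01 for the probe used, and the 2 Srebf2 probes correlated with r = 0.47. Differences of the second probe were 0.23 and 0.14, which did not pass, and 0.19 for the mean of both, which did (limma adjusted p = 0.0304).

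No member passed between labelled males and females. Within a labelled diet these groups had like levels of Xist (means of 5.085 and 5.124 in controls, 8.245 and 8.209 in pesticide livers) and of the Y-linked genes. The contrast thus does not compare livers that differ in sex-chromosome transcripts, and says nothing on a sex difference of these genes. In controls, in pesticide livers and for the male minus female pesticide effect, 0 of 27 members and 0% of the 32078 probes passed by limma at an adjusted p under 0.05. In each, 1 member had an unadjusted limma p under 0.05, beside 1792, 1311 and 1265 of all probes in that order. The median member difference, labelled male minus female, was -0.23 in controls (5 of 27 above 0) and 0.12 in pesticide livers (22 of 27 above 0). The labelled male minus female difference of the pesticide log2 fold changes was above 0 for 21 of 27 members, with a median of 0.36 over all 27. Its 95% interval for single enzymes was wide, as for Sqle (-0.90 to 2.16). Signs of co-moving members are not separate counts in these comparisons either.

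Neighbouring pathways were read from fixed lists. Of 7 other SREBP2 targets, 0 passed in either pesticide contrast, yet their mean tracked the mean of the members with r = 0.95 (rho = 0.90; 0.92 without the 2 farthest arrays). Of these, Rdh11, a retinol dehydrogenase, had 0.925, Acss2, an acetyl-CoA synthetase, 0.912, and Tmem97, a sterol-binding membrane protein, 0.850. The 13 fatty acid synthesis genes, mostly targets of SREBP1c, tracked it with r = 0.89 (rho = 0.80), and 10 of 13 had r of 0.5 or more, such as Acly (0.885), which supplies cytosolic acetyl-CoA, and Fasn (0.871), the fatty acid synthase. Srebf1, which encodes SREBP1c, had 0.113. One of the 13 passed, Pnpla3, a lipid droplet protein, at 2.44 ± 0.74 in labelled males (limma adjusted p = 0.0206).

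The 8 genes of SREBP processing and ER-associated degradation had r = -0.28 as a mean, with 0 passing in either contrast, and Mbtps2, the protease that frees SREBP in its membrane, had 0.680. Of 13 sterol efflux, storage and LXR genes, 3 were higher in labelled males and 5 in labelled females, and 0 lower. Npc2, the lysosomal partner of Npc1, was higher by 0.61 ± 0.14 and 0.58 ± 0.14 (limma adjusted p = 0.00213 and 0.00399). Soat1, the acyltransferase of macrophages among other cells, was higher by 0.77 ± 0.19 and 0.64 ± 0.19 (0.00532 and 0.0193 by limma). Abcg1, a sterol exporter also prominent in macrophages, was higher by 0.58 ± 0.18 and 0.60 ± 0.18 (0.0246 and 0.0253 by limma). Lcat, which esterifies cholesterol in plasma, and Scarb1, the receptor that takes up HDL sterol, ran against the members over arrays (r = -0.79 and -0.78). Of 10 fasting genes, Pdk4, which turns off glucose oxidation, was higher in both (1.63 ± 0.28 and 1.15 ± 0.28, limma adjusted p = 0.000208 and 0.00616) and Pck1, a gluconeogenic enzyme, in labelled females (0.57 ± 0.19, 0.0435). Over arrays, Igfbp1 had r = 0.73 with the members, Cpt1a -0.63 and G6pc -0.62, and the mean of the list 0.20. The 9 tested clock genes had r = 0.25, and 1, Ciart, passed as lower in labelled females (limma adjusted p = 0.0283), where it was well above background on 4 of 6 control and 1 of 6 pesticide arrays.

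Outside the members, 15167 named genes were ranked by r with the mean of the members over 24 arrays. The 10 highest were Prss8 (0.956), Chrna4 (0.950), Rdh11 (0.925), Acss2 (0.912), Fabp5 (0.906), Abhd5 (0.890), Pnpla5 (0.885), Acly (0.885), G6pdx (0.884) and Pdzk1ip1 (0.884). In all, 60 genes had r of 0.8 or more and 17 had -0.8 or less. Among the lowest were Cyp4v3, a fatty acid hydroxylase (-0.904), and Crot, a peroxisomal carnitine transferase (-0.863). None of the 10 highest passed in a pesticide contrast by limma; their adjusted p ran from 0.14 to 0.967. Of the lowest, Cyp4v3 was lower in pesticide livers of labelled males and females (-0.86 and -0.70, limma adjusted p = 0.000668 and 0.00474). So was Aox3, an aldehyde oxidase with r = -0.85 (-1.47 in both, limma adjusted p = 3.26e-05 and 4e-05).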

How the data were processed

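Liver RNA was measured on 24 single-colour Agilent SurePrint G3 Mouse GE v2 arrays. Fluorescence intensity per spot is what the deposited scanner files give, per the file headers, extracted with Agilent Feature Extraction 10.10.1.1 per the submitters' processing notes. A deposited table of log2 values, filtered and quantile normalized by the authors per the labels, served as an alternative.

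Here the log2 median spot signal was used without background subtraction. Control spots were left out, outlier spots set to missing, spots of a probe averaged and 56605 probes quantile normalized. A probe was tested when well above background on at least 4 of 6 arrays of a group (32078 probes). limma 3.58.1 (R 4.3.3) was fitted to all 24 arrays with 1 mean per labelled group and no block. Tests were two-sided, with Benjamini-Hochberg adjustment over all tested probes and a threshold of 0.05. SE is limma's and SD is over 6 arrays. The scripts were tested on simulated data.

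Members and lists were chosen with earlier results of these data known. Probe positions are mm9 per the file headers. Described in full are members that passed, the 5 widest, the 5 with the highest r, and the 4 regulators; from each list, up to 4 passing genes with the smallest p; and the 10 genes most like the members. Alternatives were 2 scalings to the 75th percentile, normexp (offset 50), other filters, outliers kept, slide and replicate blocks, single slides, pairs of groups, other eBayes settings, the mean over probes, the value table and each array left out. Replicate numbers were checked: of 12 same-numbered pairs, r ran from -0.118 to 0.221, with 3 above 0.1, so numbers were not taken as pairs. Precision is limited by the number of arrays. Individual values of 2 genes that the naming rule covers are not reported here.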

Additional observations from a re-analysis of the deposited data

Results flagged for a closer look

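Of 112 sets of 6 arrays examined (27 members and their mean in 4 groups), 12 had a highest or lowest array that stood apart, with a gap to its neighbour above Dixon's 95% critical share of the range of the group. Chance gives about 1 in 20, and co-moving members on one array are not separate events.

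Labelled male pesticide 1 stood apart below its group for 6 enzymes: Fdps (14.80, next array 15.84), Fdft1 (13.23, next 13.93), Sqle (11.54, next 13.66), Cyp51 (11.20, next 12.22), Nsdhl (10.14, next 11.01) and Dhcr7 (10.42, next 11.30). Labelled male control 6 stood apart below for Sqle (10.95, next 12.86) and Msmo1 (12.05, next 13.04), and labelled female pesticide 4 for Sqle (12.25, next 13.26).

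The other values concerned regulators. Srebf2 was high in labelled female control 5 (11.06, next 10.85), Scap was high in labelled female pesticide 5 (14.63, next 14.26), and Insig2 was low in labelled female control 6 (14.10, next 15.03).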

How the results depend on the processing

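No called member changed sign under any alternative run. Called members in labelled males numbered 3, but 1 with Agilent's processed signal scaled at the 75th percentile (Insig2), 1 without a filter on dim probes (Insig1), 5 with the mean over all probes of a gene (Hmgcs1, Ebp, Sc5d, Insig1 and Mylip, all higher), and 1, 0 and 0 on slides 1, 2 and 3 alone. In labelled females they numbered 3, and 0 on each slide alone. For the mean of both contrasts they numbered 4, but 9 with the mean over probes and 1, 1 and 0 on slides 1, 2 and 3. A slide alone has 2 arrays a group. With the replicate number as a block, counts were 5 in labelled males (Ebp, Insig1, Insig2, Soat2 and Mylip), 4 in females (Hsd17b7, lower, with Soat2, Mylip and Npc1) and 7 for the mean (Srebf2, Scap, Ebp, Insig2, Soat2, Mylip and Npc1). The difference of the member mean in labelled males was -0.119 on slide 1 alone. Other alternatives kept the 3, 3 and 4 within 1.5 times, and the value table called the same genes. Shares of all probes in these runs, and with 1 array left out, are not given here. The counts thus describe the calls and not the set.

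Leaving out 1 array gave 0 to 7 called members in labelled males, 2 to 4 in females, 3 to 6 for the mean and 0 in the other 3 contrasts. The difference of the member mean ran from 0.151 to 0.404, -0.105 to 0.064 and 0.068 to 0.194, and between labelled sexes from -0.284 to -0.06 in controls and 0.031 to 0.225 in pesticide livers. The median pair r ran from 0.57 to 0.63. Beyond single slides, Mylip in labelled males also missed the threshold with median or processed signal scaled at the 75th percentile (adjusted p = 0.0514 and 0.0604 by limma), no filter (0.0675) and only the groups compared (0.076), Insig1 there with processed signal (0.0547), Soat2 in labelled females with either scaling (0.0989 and 0.0944) and no filter (0.0534), Insig2 in labelled males with a slide block (0.0508), the mean over probes (0.0511) and no filter (0.0772), and Npc1 in labelled females with the mean over probes (0.0534). The cause was not tested.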
